A study of Homo sapiens with 12 samples.

Results

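The 28 genes described here encode enzymes of cholesterol synthesis, the proteins that sense sterols and proteins that carry or take up cholesterol. They were chosen by symbol, and all 28 were listed in both deposited tables, which hold 11554 genes for SW48 and 11070 for 23132/87, with 10264 in both and 12360 in either. By role they fall into 8 genes of the mevalonate steps, 12 of the squalene and post-squalene steps and 8 of sterol sensing and transport. RNA was sequenced from SW48, an established line of colorectal adenocarcinoma labelled WT, and from 23132/87, an established line of gastric adenocarcinoma with the same genotype label. Each line had 3 libraries from cells given myricone C (MyrC) at 10 µM for 48 h, and 3 from cells given its vehicle, DMSO at 0.1%, for the same 48 h. The series title calls MyrC a neolignan from Myristica fragrans and places it in relation to endoplasmic reticulum stress, apoptosis and ROCK. Only 1 dose, 1 time and 1 cell line per tissue were studied, and the labels' protocols call the 12 libraries biological replicates without saying whether they came from separate cultures on separate days, so p-values measure the spread between these libraries.

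Cells build cholesterol from acetyl-CoA through mevalonate and isoprenoid units to squalene, which is closed into lanosterol and then trimmed and reduced to cholesterol in the endoplasmic reticulum. The transcription factor encoded by SREBF2 is bound to its escort SCAP, and the INSIG proteins hold both there while sterols are plentiful. The factor is released by proteolysis when sterols run low and then switches on most genes of the pathway, INSIG1 included. NPC1 and NPC2 let cholesterol that entered by endocytosis leave the lysosome.

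The values are a deposited expression signal that resembles FPKM or TPM, that is, scaled to library size and probably to gene length. They are not counts, so the depth behind them is unknown and counting error cannot be given. Every listed gene had a value of at least 1 in all 6 libraries of its line. A change is the difference in mean log2(value + 1), MyrC minus vehicle, with limma's moderated standard error, and a gene is said to rise or fall when its Benjamini-Hochberg adjusted p over all genes of the table was under 0.05. The difference between lines is the SW48 change minus the 23132/87 change, from the line-by-treatment term of a limma fit on all 12 libraries. In a bulk library, a change in RNA per cell and a change in the share of cells that carry it cannot be told apart.

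The leading principal component held 68.7% of the variance in SW48 and 77.3% in 23132/87 and parted MyrC from vehicle libraries in both. SW48 MyrC replicate 1 stood apart from its partners, at 14.4 on this component against 36.5 and 29.1. Small structural RNAs took 4.32% of its summed values, against 0.0412% to 0.173% in the other SW48 libraries. SW48 results are therefore also given without it where that matters. Mitochondrial pseudogenes took 13.5% to 15.3% of the summed values in SW48 MyrC libraries, against 16.6% to 18.1% in SW48 vehicle libraries. In 23132/87 they took 13.5% to 14.4% with MyrC, against 13.4% to 15.6% with vehicle. Among 6 general epithelial markers, all were listed in both lines. Colorectal markers listed in SW48 included CDX2, CDH17 and LGR5, while CDX1, VIL1, KRT20, MUC2 and ASCL2 were not listed there, and CDH17 averaged 4.64 in SW48 vehicle libraries and 129 in 23132/87 vehicle libraries. For 23132/87 only TFF1 was listed of 8 gastric markers, while the colorectal markers CDX2, CDH17 and VIL1 were listed in it. Leukocyte and mesenchymal markers were not listed, except SNAI1 in SW48 and CD68 and COL1A1 in 23132/87. Several markers moved with MyrC. The keratins KRT8, KRT18 and KRT19 rose in SW48 by 1.19, 1.57 and 0.74 on the log2 scale and fell in 23132/87 by 1.48, 1.60 and 1.22. CDH1 rose in both lines, by 0.61 in SW48 and 0.56 in 23132/87, and CLDN4 passed in neither. In SW48 the KRT19 call was lost under 3 of 15 alternatives and the CDH1 call under 5 of 15. EPCAM fell in 23132/87 by 0.41, with a change of -0.27 in SW48. CDX2 and LGR5 fell in SW48 by 1.47 and 0.76, VIL1 and TFF1 fell in 23132/87 by 1.54 and 0.85, and CD68 rose in 23132/87 by 1.22. The part of these shifts in the results below was not tested.

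Many of the 28 genes were higher with MyrC in both lines, and a minority was lower. In SW48, 10 of 28 rose (35.7%), where 10.1% of all genes rose, and 3 fell (10.7%), where 19.2% of all genes fell. In 23132/87, 13 rose (46.4%), where 23.3% of all genes rose, and 3 fell (10.7%), where 23.2% of all genes fell. The median change of the 28 was 0.27 in SW48, where that of all genes was -0.08, and 0.35 in 23132/87, where that of all genes was 0.01. Together the 28 genes held 0.243% to 0.296% of the summed values of SW48 MyrC libraries, against 0.184% to 0.213% in SW48 vehicle libraries. In 23132/87 they held 0.486% to 0.605% in MyrC libraries, against 0.33% to 0.417% in vehicle libraries. Neither pair of ranges overlapped. In SW48 all MyrC libraries lay above all vehicle libraries for 14 of the 28 genes and below them for 3. Over all genes in SW48 this held for 16.8% above and 28.4% below. In 23132/87 it was 14 above and 4 below, where over all genes it was 28.9% above and 27.9% below. Groups that stand apart are thus common among all genes.

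These counts moved with the scaling and with single libraries. Without SW48 MyrC replicate 1, 9 of the 28 genes rose in SW48 and 7 fell, with 11.5% of all genes rising and 20.1% falling. After quantile normalization 12 rose and 2 fell in SW48, where 13.1% of all genes rose and 15.3% fell. In 23132/87 16 rose and 0 fell under it, where 22.4% of all genes rose and 22.8% fell. Over all genes, 34.6% of SW48 calls were higher with MyrC as deposited, against 46.2% after quantile normalization and 42.4% after centring each library on its median.

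Of the 28 genes, 9 rose in both lines: HMGCS1, CYP51A1, MSMO1, HSD17B7, DHCR7, SREBF2, INSIG1, STARD4 and NPC1. Only NPC2 fell in both. IDI1 rose in SW48 alone, and PMVK and LBR fell in SW48 alone. MVD, SQLE, LSS and SC5D rose in 23132/87 alone, and EBP and TMEM97 fell in 23132/87 alone. The other 9, ACAT2, MVK, FDPS, GGPS1, FDFT1, TM7SF2, NSDHL, SCAP and INSIG2, passed the threshold in neither line. Over all genes, calls in both lines or in 1 alone were not counted. These joint counts therefore stand without a background share. A call in 1 line does not show a difference between lines. By the test of the difference itself, 1 of the 28 (3.57%) changed more in the upward direction in SW48, where 5.33% of all genes in both tables did, and 2 (7.14%) in the downward direction, where 7.39% did. Both shares are near the background. The 3 genes were INSIG1, PMVK and LSS.

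**Figure D1:**
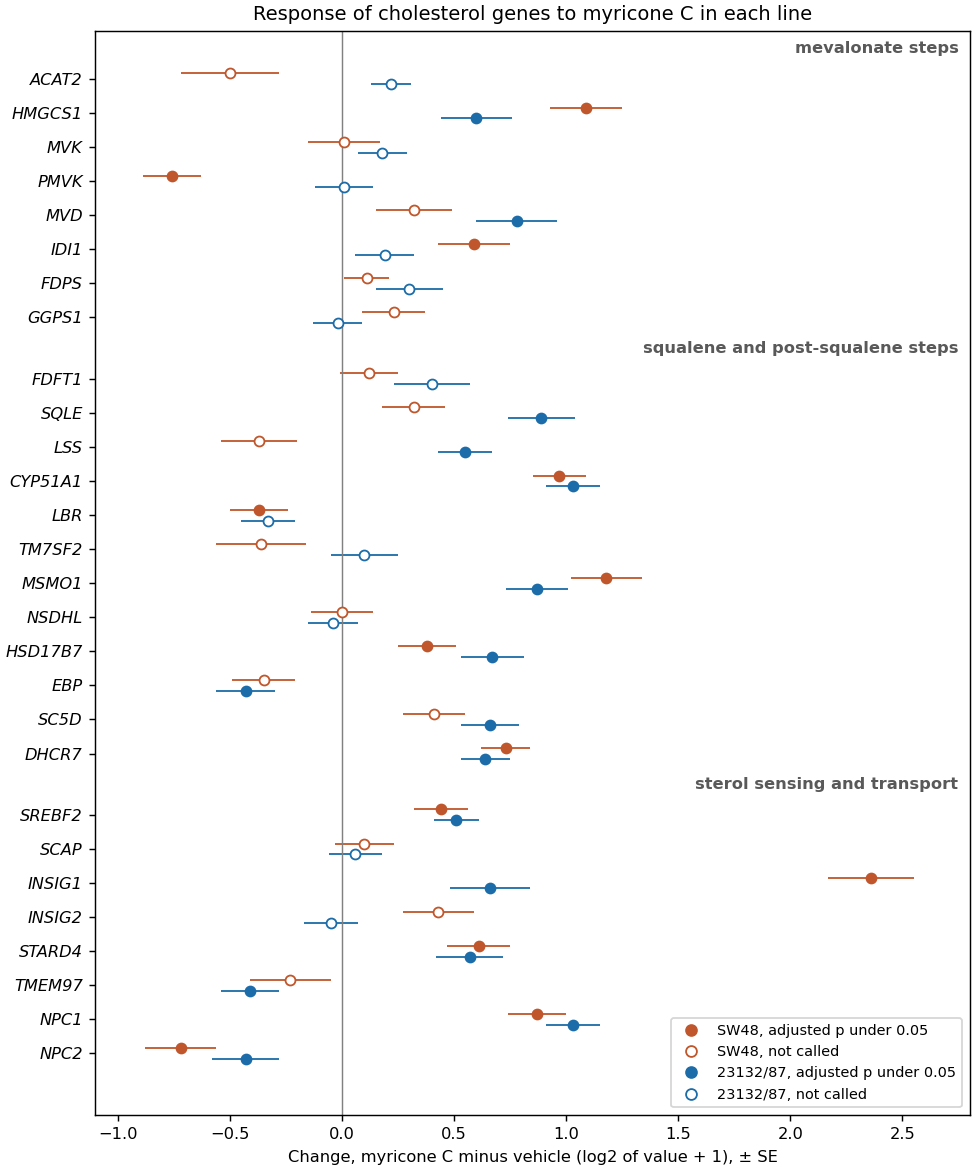
Change of each of the 28 genes with myricone C, as the difference in mean log2(value + 1) from vehicle, with limma's standard error as the bar, in SW48 (orange) and 23132/87 (blue). Filled points passed adjusted p under 0.05, and INSIG1 in SW48 stands farthest to the right at 2.36.

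**Figure D2:**
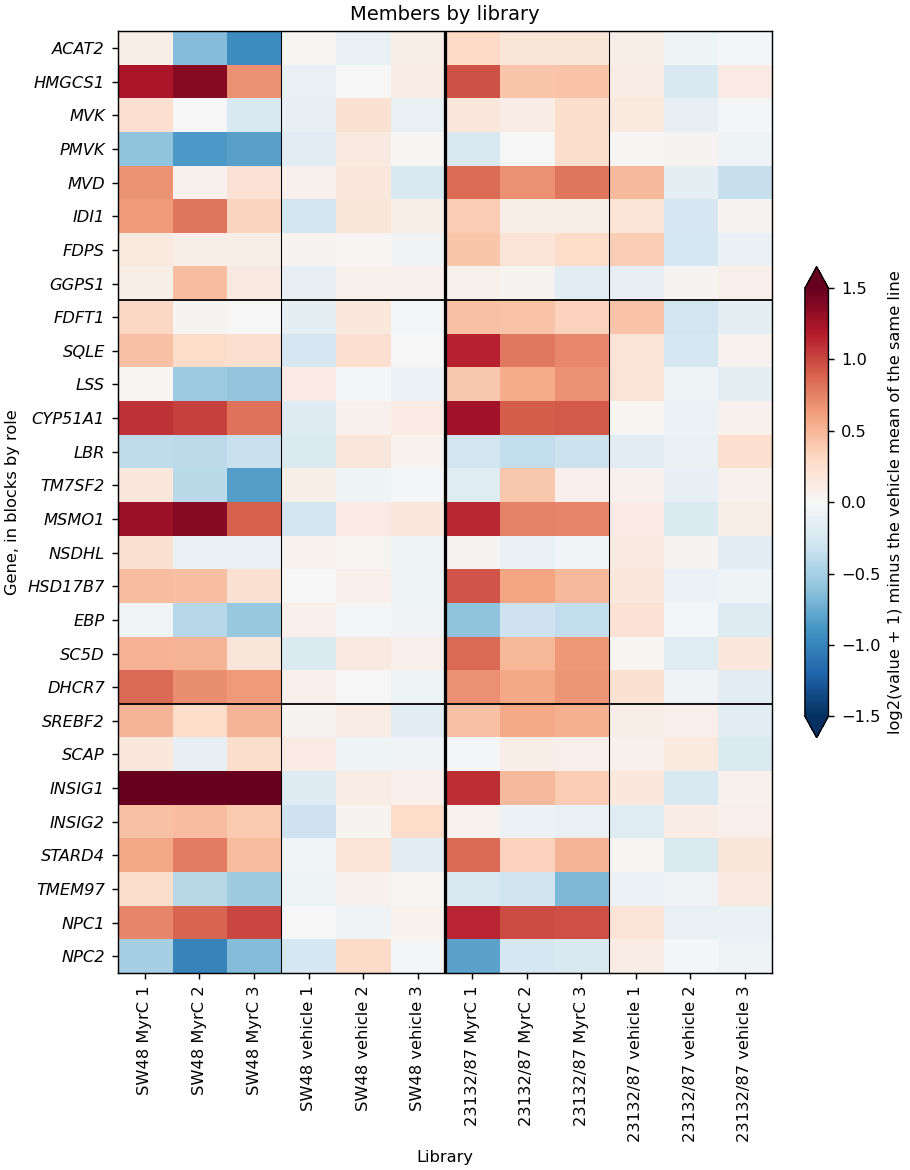
Each library's log2(value + 1) for the 28 genes minus the vehicle mean of the same line, with colours ending at 1.5 in both directions. Rows are in blocks by role, and the 3 MyrC libraries of each line stand left of its 3 vehicle libraries. HMGCS1, CYP51A1, MSMO1, INSIG1 and NPC1 are red in all 6 MyrC libraries.

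Promoters of 5 of the 9 genes that rose in both lines, and of LSS, whose change differed between lines, are shown because SREBP-2 binds sterol regulatory elements and works with NF-Y, which binds CCAAT boxes. RefSeq promoter windows on GRCh38.p14, from 250 bases before to 50 after a start, were at hand for 25 of the 28 genes, in 34 windows. The stretches below lie before the RefSeq start and outside the GENCODE gene, and run 5′ to 3′ on the gene's strand. Capitals mark a match to TCACNCCAC or its other strand GTGGNGTGA, with at most 1 mismatch, or to CCAAT or its other strand ATTGG.
SREBF2 (chr22:41832942-41833010, + strand): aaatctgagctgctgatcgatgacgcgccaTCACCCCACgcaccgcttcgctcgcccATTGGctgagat
INSIG1 (chr7:155297640-155297717, + strand): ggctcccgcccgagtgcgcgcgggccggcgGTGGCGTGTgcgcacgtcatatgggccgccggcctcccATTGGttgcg
MSMO1 (chr4:165327479-165327551, + strand): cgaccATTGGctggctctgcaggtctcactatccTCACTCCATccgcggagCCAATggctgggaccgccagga
HSD17B7 (chr1:162790574-162790659, + strand): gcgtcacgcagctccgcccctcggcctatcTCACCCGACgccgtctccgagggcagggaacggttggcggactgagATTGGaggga
STARD4 (chr5:111512641-111512716, - strand): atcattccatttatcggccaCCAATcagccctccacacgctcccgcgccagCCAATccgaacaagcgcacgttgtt
LSS (chr21:46228900-46228944, - strand): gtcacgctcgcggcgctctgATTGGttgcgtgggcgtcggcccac
The exact element was found on either strand in 1 of 25 genes (4.0%), SREBF2, at -133 to -125 from the start, and in 1.37% of the 9709 listed genes with a window. With 1 mismatch allowed, a search added after the exact one had matched a single gene, it was found in 10 of 25 (40.0%), against 30.4% of listed genes. A CCAAT box on either strand was found in 19 of 25 (76.0%), against 43.0% of listed genes. Both motifs stood in the same window for 9 of 25 (36.0%), against 11.8% of listed genes. SREBF2, INSIG1, MSMO1 and HSD17B7, which rose in both lines, were among these, as were IDI1 and SC5D, which rose in 1. The rest were MVK and FDPS, which passed in neither line, and NPC2, which fell in both. Of the 4 genes that rose in both lines and are not shown, HMGCS1 had CCAAT boxes and no element. DHCR7 had CCAAT boxes in one window and an element with 1 mismatch in another, and the windows of CYP51A1 and NPC1 held neither motif. These matches are letters in a window, not binding, and SQLE, FDFT1 and ACAT2 had no window to search.

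The mevalonate steps gave 2 genes that rose and 1 that fell of 8 in SW48, with a median change of 0.17. In 23132/87, 2 rose and 0 fell, with a median of 0.21. The 2 that rose are 25.0% of the 8 in each line, which in 23132/87 is near the 23.3% of all genes that rose. HMGCS1, the cytosolic synthase that makes HMG-CoA, was the only one of the 8 that rose in both lines. In SW48, HMGCS1 was at 63.5, 70.1 and 43.7 in MyrC libraries, against 24.7, 26.7 and 28.8 in vehicle libraries. In 23132/87 it was at 163, 112 and 113 in MyrC libraries, against 90.5, 71.0 and 91.1 in vehicle libraries. All MyrC libraries lay above all vehicle libraries in each line. The change was 1.09 ± 0.16 (SE, adjusted p = 0.000837, limma) in SW48 and 0.60 ± 0.16 (adjusted p = 0.0117) in 23132/87, and the difference of 0.49 ± 0.25 missed the threshold (adjusted p = 0.205). The 23132/87 call was lost without vehicle replicate 2, at 0.48.

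IDI1 makes dimethylallyl diphosphate, the isomer from which isoprenoid chains start. Its SW48 values were 43.9, 49.3 and 35.1 with MyrC, against 22.8, 31.6 and 29.6 with vehicle, and its 23132/87 values were 156, 128 and 129 with MyrC, against 139, 101 and 123 with vehicle. The groups stood apart in SW48 and overlapped in 23132/87. IDI1 rose in SW48 by 0.59 ± 0.16 (SE, adjusted p = 0.0166), a call lost without vehicle replicate 1 or MyrC replicate 2, at 0.45 and 0.48. Its change in 23132/87 was 0.19 ± 0.13 (adjusted p = 0.259), and the difference between lines was 0.40 ± 0.22 (adjusted p = 0.241).

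MVD, which decarboxylates mevalonate diphosphate, showed the other order. SW48 MyrC libraries held MVD at 31.9, 20.7 and 23.0, against 20.6, 22.2 and 16.7 in vehicle libraries. For 23132/87 the values were 94.6, 85.0 and 91.8 with MyrC, against 73.5, 47.4 and 41.0 with vehicle. The groups overlapped in SW48, where the change was 0.32 ± 0.17 (SE, adjusted p = 0.18). They stood apart in 23132/87, where MVD rose by 0.78 ± 0.18 (adjusted p = 0.00611), with vehicle replicate 1 well above its partners. The difference of -0.46 ± 0.27 did not pass (adjusted p = 0.277).

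PMVK, the kinase that adds the second phosphate to mevalonate, was the mevalonate gene whose change differed between lines. Its SW48 values were 15.3, 12.6 and 13.1 with MyrC, against 21.1, 26.2 and 24.2 with vehicle. In 23132/87 they were 46.9, 55.8 and 66.9 with MyrC, against 56.4, 57.3 and 53.1 with vehicle. All SW48 MyrC libraries lay below all vehicle libraries, and in 23132/87 the MyrC libraries lay on both sides of the vehicle libraries. PMVK fell in SW48 by 0.76 ± 0.13 on the log2 scale (SE, adjusted p = 0.00184), while its change in 23132/87 was 0.01 ± 0.13 (adjusted p = 0.959). The difference was -0.77 ± 0.18 (adjusted p = 0.0139), and -0.85 ± 0.19 without SW48 MyrC replicate 1 (adjusted p = 0.00931).

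The other 4 mevalonate genes passed in neither line, with changes from -0.50 to 0.23 in SW48 and from -0.02 to 0.30 in 23132/87. ACAT2, the cytosolic thiolase that joins 2 acetyl-CoA units, depended on SW48 MyrC replicate 1. It was at 40.3, 23.5 and 19.0 in SW48 MyrC libraries, against 37.9, 34.7 and 40.3 in SW48 vehicle libraries, so that replicate 1 lay with the vehicle libraries and the other MyrC libraries below them. The SW48 change was -0.50 ± 0.22 (SE, adjusted p = 0.106) with all libraries and -0.80 ± 0.14 (adjusted p = 0.00135) without that replicate. In 23132/87 ACAT2 was at 80.0, 73.5 and 73.6 with MyrC, against 69.4, 61.7 and 63.1 with vehicle, a change of 0.22 ± 0.09 (adjusted p = 0.0716). The difference between lines was -0.72 ± 0.26 (adjusted p = 0.0849), and -1.02 ± 0.16 without SW48 MyrC replicate 1 (adjusted p = 0.00114). Exons of ACAT2 overlap those of SOD2 over 1141 bases and of TCP1 over 397 bases on the opposite strand, and the strand setting of the counting is not given in the sources used here.

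FDPS, which makes farnesyl diphosphate, was at 128, 123 and 123 in SW48 MyrC libraries, against 119, 117 and 112 in SW48 vehicle libraries, a change of 0.11 ± 0.10 (SE, adjusted p = 0.458). The 23132/87 libraries held it at 324, 280 and 294 with MyrC, against 313, 202 and 227 with vehicle, a change of 0.30 ± 0.15 (adjusted p = 0.14). Vehicle replicate 1 of 23132/87 lay among the MyrC libraries, and without it FDPS rose, by 0.48. The annotation names 8 pseudogenes after FDPS, none of them listed in either table, and its exons share 693 bases with the antisense gene RUSC1-AS1, which rose by 0.73 in SW48 and by 0.86 in 23132/87. MVK, the first mevalonate kinase, changed by 0.01 ± 0.16 (adjusted p = 0.974) in SW48 and 0.18 ± 0.11 (adjusted p = 0.185) in 23132/87. GGPS1, which makes geranylgeranyl diphosphate, changed by 0.23 ± 0.14 (adjusted p = 0.232) in SW48 and -0.02 ± 0.11 (adjusted p = 0.908) in 23132/87.

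**Figure D3:**
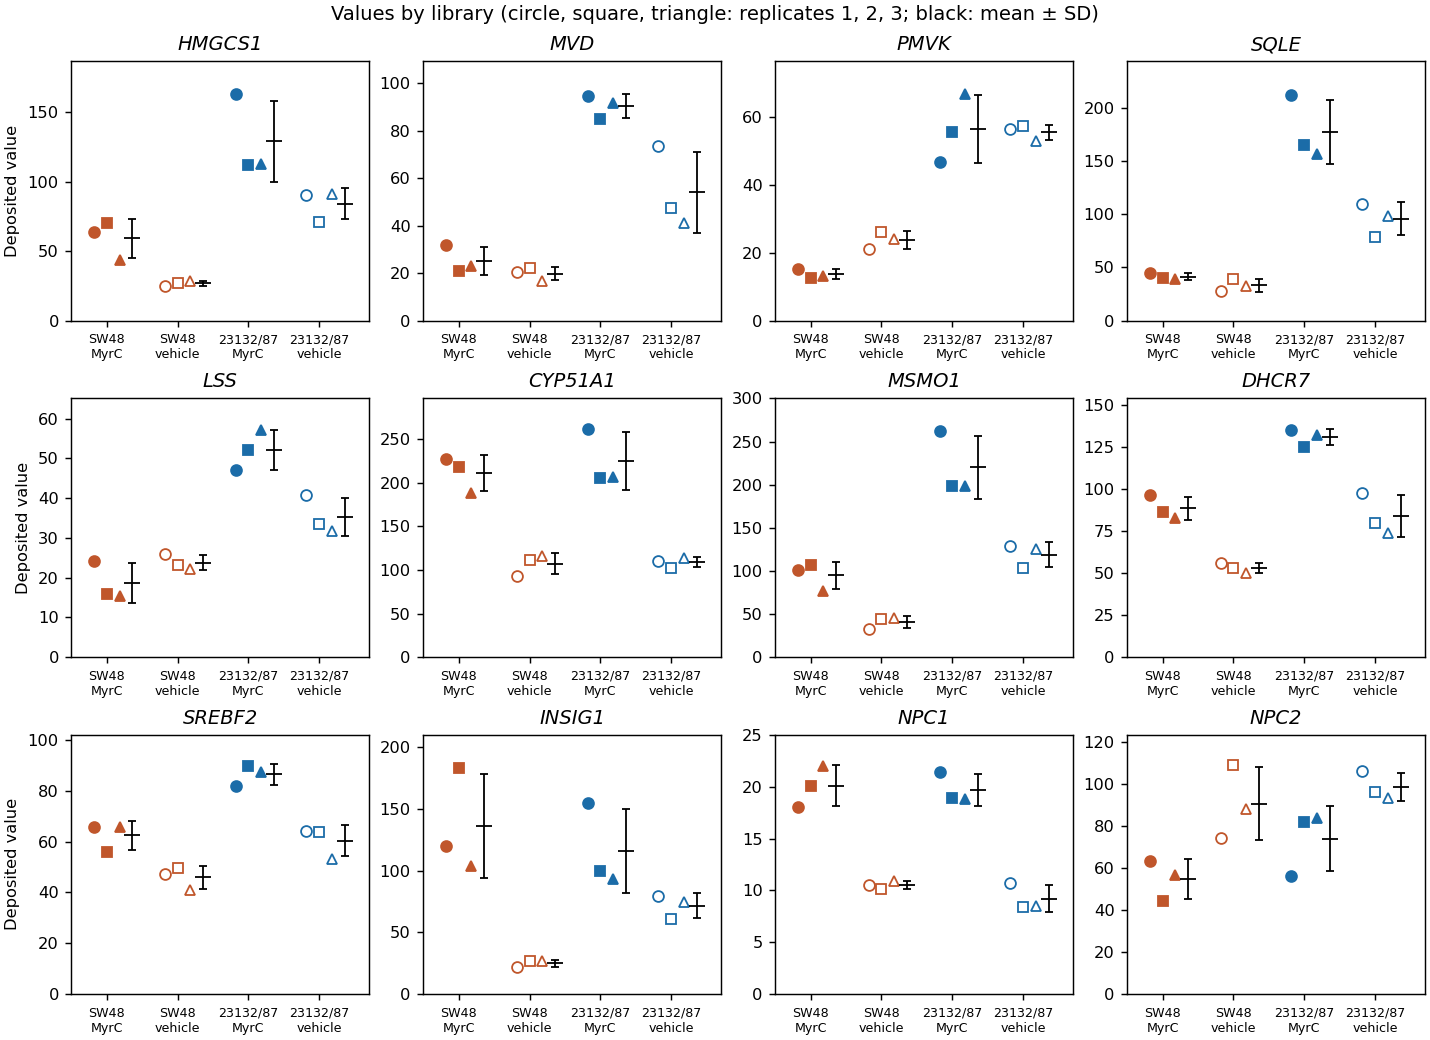
Deposited value in each library for 12 of the 28 genes, with replicates 1, 2 and 3 as circle, square and triangle and mean ± SD (n = 3) in black. MyrC groups (filled) stand left of their vehicle groups (open), SW48 is orange and 23132/87 blue, and the value axis of each panel starts at 0. CYP51A1 and NPC1 show the same separation in both lines, while PMVK parts the groups in SW48 only.

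The squalene and post-squalene steps gave 4 genes that rose and 1 that fell of 12 in SW48, with a median change of 0.22. In 23132/87, 7 rose and 1 fell, with a median of 0.60. The share that rose was 33.3% in SW48, against 10.1% of all genes, and 58.3% in 23132/87, against 23.3% of all genes. CYP51A1, MSMO1, DHCR7 and HSD17B7 rose in both lines. These are enzymes of demethylation and reduction after lanosterol. No test was made of the mevalonate steps against these steps, and the counts stand side by side as a description.

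CYP51A1, the cytochrome P450 that demethylates lanosterol, was at 227, 218 and 188 in SW48 MyrC libraries, against 93.6, 112 and 116 in SW48 vehicle libraries. Values in 23132/87 were 262, 205 and 207 with MyrC, against 110.0, 102 and 114 with vehicle. All MyrC libraries lay above all vehicle libraries in both lines. CYP51A1 rose by 0.97 ± 0.12 (SE, adjusted p = 0.000349) in SW48 and by 1.03 ± 0.12 (adjusted p = 9.83e-05) in 23132/87, and the difference was -0.06 ± 0.17 (adjusted p = 0.84).

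MSMO1, an oxidase that removes methyl groups from the sterol ring, had SW48 values of 101, 107 and 76.8 with MyrC, against 33.3, 44.6 and 45.8 with vehicle. Its 23132/87 values were 262, 199 and 198 with MyrC, against 129, 103 and 126 with vehicle. No groups overlapped. MSMO1 rose by 1.18 ± 0.16 (SE, adjusted p = 0.000456) in SW48 and by 0.87 ± 0.14 (adjusted p = 0.000664) in 23132/87, with a difference of 0.31 ± 0.22 (adjusted p = 0.38).

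DHCR7, the reductase of the last step to cholesterol in one branch of the pathway, was at 96.1, 86.3 and 82.9 in SW48 MyrC libraries, against 56.0, 53.0 and 50.2 in SW48 vehicle libraries. For 23132/87 the libraries read 135, 125 and 132 with MyrC, against 97.7, 80.0 and 73.9 with vehicle. The groups were apart in both lines. DHCR7 rose by 0.73 ± 0.11 (SE, adjusted p = 0.000874) in SW48 and by 0.64 ± 0.11 (adjusted p = 0.00138) in 23132/87, with a difference of 0.08 ± 0.15 (adjusted p = 0.759).

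HSD17B7, a reductase of the demethylation cycle, was at 13.5, 13.4 and 11.4 with MyrC in SW48, against 9.52, 10.1 and 9.06 with vehicle. Values in 23132/87 were 32.4, 25.1 and 23.4 with MyrC, against 18.4, 15.3 and 15.6 with vehicle. MyrC libraries lay above vehicle libraries throughout. The rise was 0.38 ± 0.13 (SE, adjusted p = 0.0458) in SW48, where it was lost under 7 of 15 alternatives at changes of 0.34 to 0.45, and 0.67 ± 0.14 (adjusted p = 0.00299) in 23132/87. The difference was -0.29 ± 0.18 (adjusted p = 0.316). Of 2 pseudogenes named after HSD17B7, 1 was listed in each table, so reads may be split between copies.

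SC5D, which introduces a double bond in the ring of lathosterol, had SW48 values of 35.3, 35.0 and 27.8 with MyrC, against 20.8, 26.9 and 25.7 with vehicle. In 23132/87 the values were 39.2, 30.5 and 33.9 with MyrC, against 21.7, 18.6 and 23.9 with vehicle. All MyrC libraries were above all vehicle libraries in both lines. The SW48 change of 0.41 ± 0.14 stood just outside the threshold (SE, adjusted p = 0.0506), and SC5D rose by 0.66 ± 0.13 (adjusted p = 0.00214) in 23132/87. The difference was -0.26 ± 0.20 (adjusted p = 0.411).

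SQLE, the epoxidase that acts on squalene at a rate-limiting step, was at 44.9, 39.8 and 38.9 in SW48 MyrC libraries, against 27.4, 39.1 and 32.7 in SW48 vehicle libraries. Its level in 23132/87 was 213, 165 and 157 with MyrC, against 110.0, 79.0 and 98.8 with vehicle. The SW48 groups overlapped by 1 vehicle library and the 23132/87 groups were far apart. SQLE changed by 0.32 ± 0.14 (SE, adjusted p = 0.108) in SW48 and rose by 0.89 ± 0.15 (adjusted p = 0.00102) in 23132/87. The difference of -0.57 ± 0.21 missed the threshold (adjusted p = 0.0953) and passed it under 2 of 21 alternatives.

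LSS, the cyclase that folds oxidosqualene into lanosterol, was the post-squalene gene whose change differed between lines. In SW48 it was at 24.3, 15.9 and 15.4 with MyrC, against 26.0, 23.2 and 22.2 with vehicle. In the 23132/87 line it reached 47.0, 52.1 and 57.1 with MyrC, against 40.7, 33.6 and 31.7 with vehicle. SW48 MyrC replicate 1 lay among the vehicle libraries, its partners lay below them, and all 23132/87 MyrC libraries lay above their vehicle libraries. LSS rose in 23132/87 by 0.55 ± 0.12 (SE, adjusted p = 0.00433), and its change in SW48 was -0.37 ± 0.17 (adjusted p = 0.121). The difference was -0.92 ± 0.22 (adjusted p = 0.0139), and it was lost at -0.74 with a replicate block that followed the column numbers. That fit also left out the SW48 libraries whose column number had no match in the other group, so block and libraries changed together. Without SW48 MyrC replicate 1, LSS fell in SW48 by 0.57 ± 0.14 on the log2 scale (adjusted p = 0.00783) and the difference was -1.12 ± 0.17 (adjusted p = 0.00125).

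EBP, the isomerase that moves a double bond in the sterol ring, stood below vehicle in both lines. SW48 values were 52.8, 40.0 and 36.3 with MyrC, against 57.1, 53.5 and 52.4 with vehicle. In 23132/87 they were 54.1, 66.9 and 64.1 with MyrC, against 96.8, 81.8 and 72.3 with vehicle. MyrC replicate 1 of SW48 touched the vehicle range and the 23132/87 groups were apart. The change was -0.35 ± 0.14 (SE, adjusted p = 0.0864) in SW48, or -0.50 ± 0.12 without MyrC replicate 1 (adjusted p = 0.00942), and EBP fell in 23132/87 by 0.43 ± 0.13 on the log2 scale (adjusted p = 0.0194). The 23132/87 call was lost under 4 of 14 alternatives, quantile normalization among them, and the difference between lines was 0.08 ± 0.20 (adjusted p = 0.82).

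LBR, a sterol reductase that is also an inner nuclear membrane protein, was at 24.3, 24.0 and 25.0 with MyrC in SW48, against 27.3, 35.8 and 33.0 with vehicle. Its 23132/87 values were 22.1, 20.8 and 21.4 with MyrC, against 24.1, 25.3 and 32.5 with vehicle. All MyrC libraries lay below all vehicle libraries in both lines. LBR stood at the threshold in each, just inside in SW48 at -0.37 ± 0.13 (SE, adjusted p = 0.0479), a call lost under 9 of 15 alternatives, and just outside in 23132/87 at -0.33 ± 0.12 (adjusted p = 0.0509). The difference was -0.05 ± 0.17 (adjusted p = 0.893).

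TM7SF2, the other sterol reductase of this step, was at 20.8, 13.8 and 10.1 in SW48 MyrC libraries, against 19.9, 17.8 and 18.2 in SW48 vehicle libraries. The SW48 change was -0.36 ± 0.20 (SE, adjusted p = 0.208), and -0.61 ± 0.16 without MyrC replicate 1 (adjusted p = 0.0118). In 23132/87 it was 0.10 ± 0.15 (adjusted p = 0.607), and the difference was -0.46 ± 0.28 (adjusted p = 0.294), or -0.72 ± 0.23 without that replicate (adjusted p = 0.0495). FDFT1, which joins farnesyl units into squalene, was at 92.5, 76.6 and 74.7 in SW48 MyrC libraries, against 67.6, 82.8 and 73.2 in SW48 vehicle libraries, a change of 0.12 ± 0.13 (adjusted p = 0.501). Its 23132/87 values were 346, 345 and 324 with MyrC, against 345, 209 and 231 with vehicle, a change of 0.40 ± 0.17 (adjusted p = 0.0708). As for FDPS, vehicle replicate 1 lay with the MyrC libraries, and without it FDFT1 passed the threshold. NSDHL, a dehydrogenase of the demethylation cycle, changed by 0.00 ± 0.14 (adjusted p = 0.996) in SW48 and -0.04 ± 0.11 (adjusted p = 0.796) in 23132/87.

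Sterol sensing and transport gave 4 genes that rose and 1 that fell of 8 in SW48, with a median change of 0.43. In 23132/87, 4 rose and 2 fell, with a median of 0.29. The 4 that rose are 50.0% of the 8, against 10.1% of all genes in SW48 and 23.3% in 23132/87. INSIG1, SREBF2, STARD4 and NPC1 rose in both lines and NPC2 fell in both.

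INSIG1, the endoplasmic reticulum anchor that retains SCAP and is itself a target of SREBP-2, had the largest change of the 28 genes in SW48. SW48 MyrC libraries held it at 120.0, 183 and 104, against 21.6, 26.9 and 26.3 in vehicle libraries. In 23132/87 it was at 155, 99.9 and 93.2 with MyrC, against 79.7, 60.6 and 74.5 with vehicle. The groups were apart in both lines, and in SW48 the lowest MyrC library was several times the highest vehicle library. Mean values gave a ratio of 5.44 in SW48 and 1.62 in 23132/87. INSIG1 rose by 2.36 ± 0.19 (SE, adjusted p = 3.51e-05) in SW48 and by 0.66 ± 0.18 (adjusted p = 0.0142) in 23132/87. The difference of 1.70 ± 0.29 passed (adjusted p = 0.00222), and was 1.77 ± 0.31 without SW48 MyrC replicate 1 (adjusted p = 0.00273). The 23132/87 rise was lost without vehicle replicate 2, at 0.55.

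INSIG2, its paralogue, was at 7.56, 7.73 and 7.29 in SW48 MyrC libraries, against 4.09, 5.47 and 6.63 in SW48 vehicle libraries. The groups were apart, with a change of 0.43 ± 0.16 (SE, adjusted p = 0.0656) that passed under 3 of 14 alternatives. In 23132/87 INSIG2 was at 12.9, 11.6 and 11.4 with MyrC, against 10.8, 13.4 and 13.1 with vehicle, a change of -0.05 ± 0.12 (adjusted p = 0.782). The difference between lines was 0.48 ± 0.20 (adjusted p = 0.129).

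SREBF2, which encodes SREBP-2, was at 65.9, 55.8 and 65.6 with MyrC in SW48, against 47.3, 49.6 and 41.0 with vehicle. The 23132/87 libraries held it at 82.0, 89.8 and 87.3 with MyrC, against 64.3, 63.6 and 53.2 with vehicle. All MyrC libraries exceeded all vehicle libraries. SREBF2 rose by 0.44 ± 0.12 (SE, adjusted p = 0.0206) in SW48 and by 0.51 ± 0.10 (adjusted p = 0.00268) in 23132/87, with a difference of -0.08 ± 0.16 (adjusted p = 0.778). The SW48 call was lost under 3 of 15 alternatives, at 0.36 to 0.42. SCAP, the sterol-sensing escort of SREBP-2, changed by 0.10 ± 0.13 (adjusted p = 0.609) in SW48 and 0.06 ± 0.12 (adjusted p = 0.705) in 23132/87.

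STARD4, a cytosolic carrier of cholesterol, was at 21.9, 25.0 and 20.3 in SW48 MyrC libraries, against 13.9, 16.6 and 12.6 in SW48 vehicle libraries. In 23132/87 the values were 54.6, 38.2 and 43.1 with MyrC, against 30.6, 25.7 and 34.1 with vehicle. No groups overlapped. The rise was 0.61 ± 0.14 (SE, adjusted p = 0.00736) in SW48 and 0.57 ± 0.15 (adjusted p = 0.0104) in 23132/87, and the difference was 0.04 ± 0.21 (adjusted p = 0.918).

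The NPC pair moved in opposite directions. NPC1, the membrane protein that takes cholesterol out of the lysosome, was at 18.1, 20.1 and 22.0 with MyrC in SW48, against 10.5, 10.1 and 10.9 with vehicle. Values in 23132/87 were 21.4, 18.9 and 18.8 with MyrC, against 10.7, 8.38 and 8.48 with vehicle. The MyrC libraries stood far above the vehicle libraries in both lines. NPC1 rose by 0.87 ± 0.13 (SE, adjusted p = 0.000659) in SW48 and by 1.03 ± 0.12 (adjusted p = 0.000157) in 23132/87, with a difference of -0.15 ± 0.17 (adjusted p = 0.582). Its exons share 604 bases with RMC1 on the opposite strand, which changed by 0.37 in SW48 and 0.24 in 23132/87 and passed in neither.

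NPC2, the soluble lysosomal protein that hands cholesterol to NPC1, was at 63.1, 44.3 and 56.4 in SW48 MyrC libraries, against 74.3, 109 and 88.2 in SW48 vehicle libraries. For 23132/87 the libraries read 55.9, 81.9 and 83.9 with MyrC, against 106, 96.3 and 93.4 with vehicle. All MyrC libraries lay below all vehicle libraries. NPC2 fell by 0.72 ± 0.16 on the log2 scale (SE, adjusted p = 0.00765) in SW48. In 23132/87 it fell by 0.43 ± 0.15 (adjusted p = 0.0368), a call lost under 6 of 14 alternatives, and the difference was -0.28 ± 0.24 (adjusted p = 0.47).

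TMEM97, a membrane protein that binds NPC1 and lowers its level, was at 53.6, 33.2 and 30.6 with MyrC in SW48, against 42.2, 46.7 and 45.2 with vehicle. Its level in 23132/87 was 45.9, 44.0 and 33.7 with MyrC, against 51.0, 52.6 and 60.0 with vehicle. SW48 MyrC replicate 1 lay above the vehicle libraries and its partners below them, while the 23132/87 groups were apart. The SW48 change was -0.23 ± 0.18 (SE, adjusted p = 0.368), or -0.47 ± 0.12 without MyrC replicate 1 (adjusted p = 0.0133). TMEM97 fell in 23132/87 by 0.41 ± 0.13 on the log2 scale (adjusted p = 0.0266), a call lost under 4 of 14 alternatives, and the difference was 0.18 ± 0.24 (adjusted p = 0.674). In 23132/87 the gene IFT20, which shares 361 exon bases with TMEM97 on the opposite strand, rose by 1.04.

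**Figure D4:**
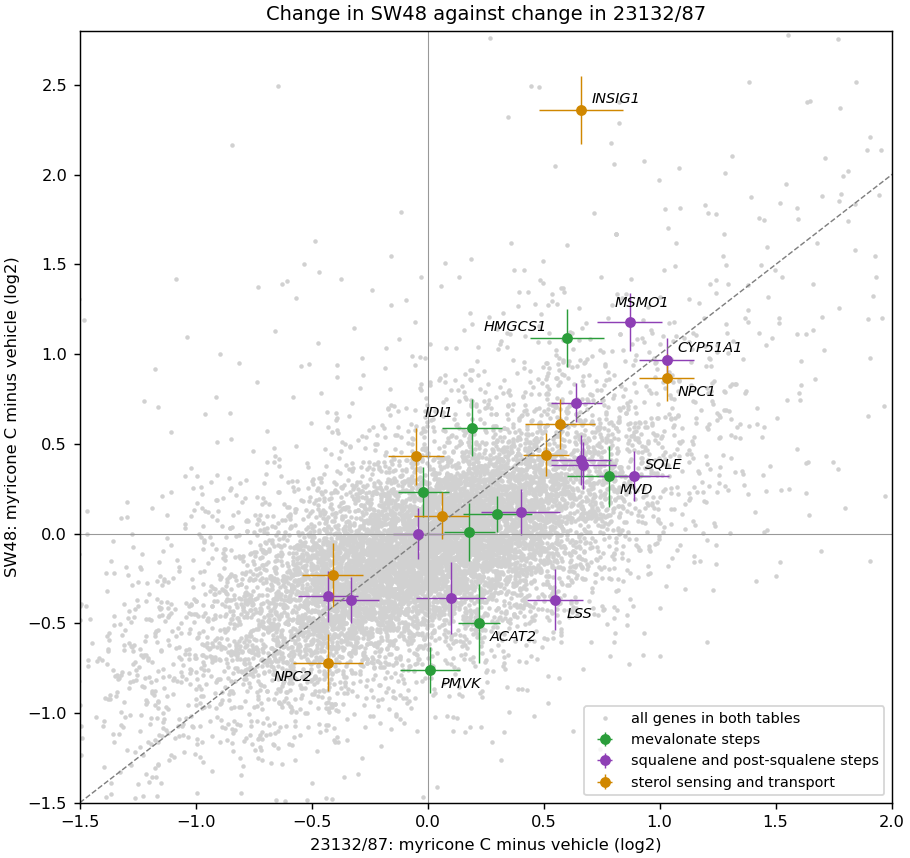
Change with myricone C in SW48 (vertical axis) against that in 23132/87 (horizontal axis), both as differences in mean log2(value + 1) from vehicle, for the 28 genes coloured by role with limma's standard errors, over all genes of both tables in grey. Points on the dashed line changed alike. INSIG1 lies 1.70 above it, LSS 0.92 and PMVK 0.77 below it.

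Several of these genes share exon bases with others, and where those lie on the opposite strand unstranded counting could mix them. IDI1 shares 643 exon bases with IDI2-AS1, which rose by 0.61 in SW48 and 0.71 in 23132/87. GGPS1 shares 1422 exon bases with TBCE, which rose in 23132/87 by 0.44, and CYP51A1 shares 2844 with AC000120.2, which was not listed in either table. Both pairs lie on the same strand, where stranded counting would not part them. NPC2 shares 103 bases with ISCA2, which fell in SW48 by 0.68 on the log2 scale. SREBF2 shares 280 with SREBF2-AS1, which fell in 23132/87 by 0.47. The part of these neighbours in the values above was not tested.

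Levels in the 2 lines can be set side by side but were not tested, because the tables were filtered separately and may have been scaled separately. With MyrC, all SW48 libraries lay below all 23132/87 libraries for 18 of the 28 genes (64.3%) and above them for 1, LBR. Over all genes in both tables these shares were 33.6% below and 29.4% above. With vehicle, SW48 lay below for 21 of 28 (75.0%) and above for 1, TM7SF2, against 29.1% below and 33.6% above over all genes. The median log2 ratio of SW48 over 23132/87 was -0.70 with MyrC and -0.75 with vehicle for the 28 genes, and -0.03 with MyrC and 0.04 with vehicle for all genes. For INSIG1 the lines overlapped with MyrC and stood apart with vehicle, with mean values of 136 ± 42.3 in SW48 and 116 ± 33.9 in 23132/87 with MyrC, and 24.9 ± 2.91 in SW48 and 71.6 ± 9.88 in 23132/87 with vehicle (SD, n = 3 each).

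**Figure D5:**
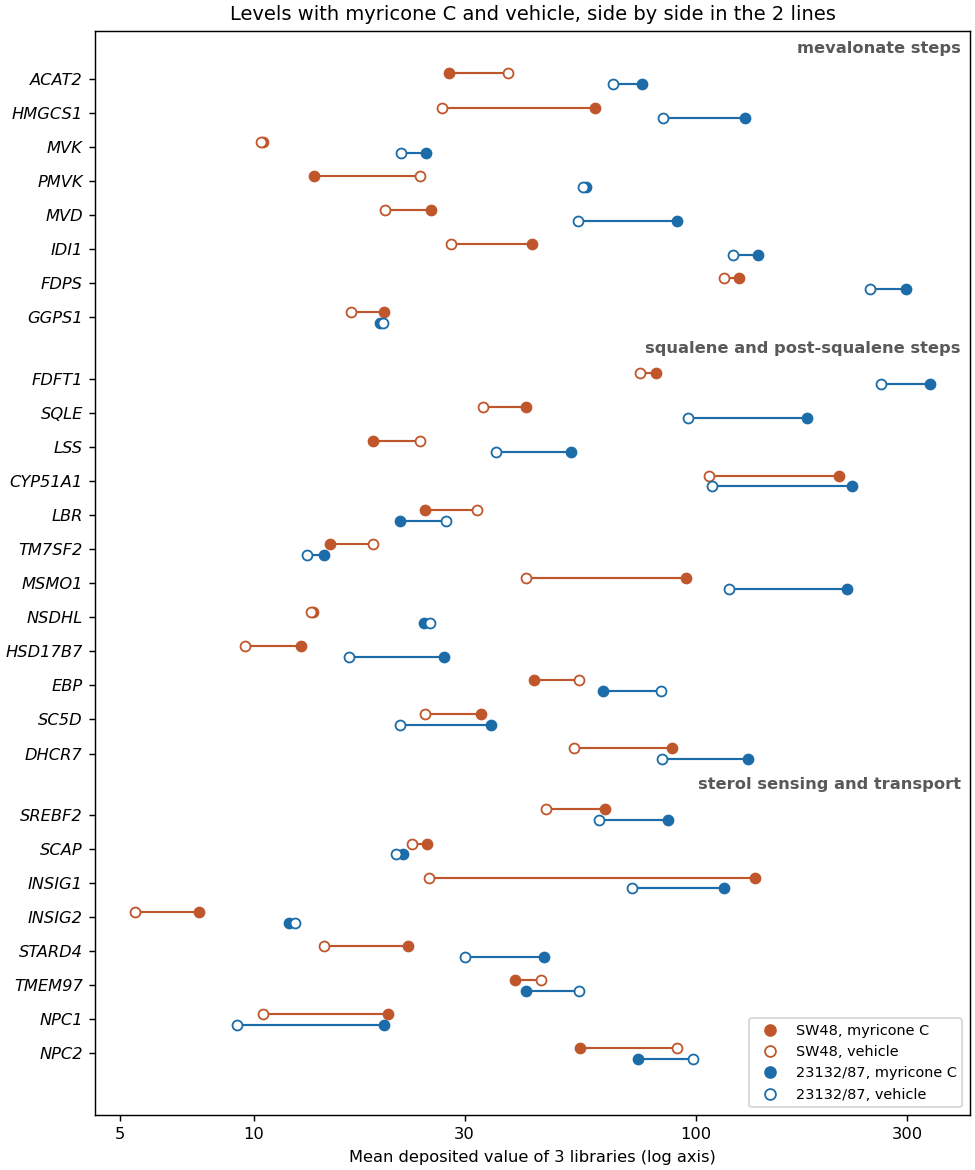
Mean deposited value (n = 3, log axis) of the 28 genes in SW48 (orange) and 23132/87 (blue), filled with myricone C and open with vehicle, joined by a line. Most SW48 points lie left of the 23132/87 points of the same row, while CYP51A1, LBR, SCAP and NPC1 sit close together in both lines.

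Genes around the pathway were taken from lists of their own, whose counts stand against 10.1% of all genes rising and 19.2% falling in SW48, and 23.3% rising and 23.2% falling in 23132/87. Of 8 genes for SREBP proteolysis and sterol-regulated degradation, 1 rose and 2 fell in SW48 (median -0.09), and 2 rose and 1 fell in 23132/87 (median 0.00). RNF145, a ubiquitin ligase of the endoplasmic reticulum that works with INSIG proteins, went opposite ways. It was at 14.3, 14.9 and 11.6 in SW48 MyrC libraries, against 18.3, 25.1 and 21.6 in SW48 vehicle libraries. In the 23132/87 line it reached 93.7, 87.4 and 85.7 with MyrC, against 64.0, 62.5 and 62.1 with vehicle. RNF145 fell in SW48 by 0.63 ± 0.15 on the log2 scale (SE, adjusted p = 0.00913) and rose in 23132/87 by 0.49 ± 0.09 (adjusted p = 0.00136), and the difference of -1.12 ± 0.17 passed (adjusted p = 0.00107). VCP, the ATPase that pulls proteins from the membrane for degradation, fell by 0.31 ± 0.10 (adjusted p = 0.0404) in SW48 and by 0.52 ± 0.09 (adjusted p = 0.00126) in 23132/87, though the SW48 call was lost under 10 of 15 alternatives. MBTPS2, the protease of the second cut of SREBP, rose in SW48 by 0.45 ± 0.13 (adjusted p = 0.0277), a call lost under 7 of 14 alternatives, and its change in 23132/87 was 0.00 ± 0.12 (adjusted p = 0.997).

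A list of 6 genes was made for electron supply to sterol enzymes, and it also holds PGRMC1 and the mitochondrial CYB5B. None of the 6 rose, 2 fell in SW48 (33.3%, against 19.2% of all genes, median -0.24) and 4 fell in 23132/87 (66.7%, against 23.2% of all genes, median -0.39). POR, the cytochrome P450 reductase, and CYB5R1 passed in neither line. Their changes were 0.19 and 0.02 in SW48 and 0.23 and 0.23 in 23132/87. CYB5R3, the cytochrome b5 reductase, was at 37.0, 31.3 and 32.9 in SW48 MyrC libraries, against 61.7, 59.8 and 52.8 in SW48 vehicle libraries, and at 46.2, 52.4 and 50.0 in 23132/87 MyrC libraries, against 71.2, 71.1 and 64.7 in 23132/87 vehicle libraries. It fell by 0.77 ± 0.12 (SE, adjusted p = 0.000929) in SW48 and by 0.47 ± 0.09 (adjusted p = 0.00269) in 23132/87. PGRMC1, a haem protein that binds cytochromes P450, fell by 0.49 ± 0.11 (adjusted p = 0.00815) in SW48 and by 0.31 ± 0.10 (adjusted p = 0.0247) in 23132/87. The PGRMC1 call was lost under 5 of 14 alternatives in 23132/87, quantile normalization among them, and under 1 of 15 in SW48. CYB5A, microsomal cytochrome b5, fell in 23132/87 by 0.92 ± 0.17 (adjusted p = 0.00169), with a change of -0.34 ± 0.13 (adjusted p = 0.0768) in SW48 and a difference of 0.58 ± 0.23 (adjusted p = 0.108). CYB5B, its mitochondrial form, fell in 23132/87 by 0.50 ± 0.13 (adjusted p = 0.00927), with a change of -0.14 ± 0.13 (adjusted p = 0.471) in SW48.

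Of 15 genes of the isoprenoid branches, which draw on farnesyl and geranylgeranyl diphosphate, 1 rose and 2 fell in SW48 (median 0.02), and 4 rose and 4 fell in 23132/87 (median -0.04). In 23132/87 these are 26.7% each way, near the shares of all genes. The genes that rose are named after their values were seen. In 23132/87 they were DHDDS, NUS1, FNTA and RABGGTB, by 0.74, 0.58, 0.54 and 0.39. In SW48 it was CHM, by 0.48. How these calls hold under the alternatives is not given. PDSS1, which makes the side chain of coenzyme Q, was at 9.23, 10.4 and 7.75 in SW48 MyrC libraries, against 12.3, 8.37 and 13.8 in SW48 vehicle libraries, and at 4.99, 4.50 and 5.61 in 23132/87 MyrC libraries, against 12.8, 13.2 and 14.7 in 23132/87 vehicle libraries. It fell in 23132/87 by 1.27 ± 0.12 (SE, adjusted p = 4.22e-05), its change in SW48 was -0.29 ± 0.18 (adjusted p = 0.262), and the difference of 0.99 ± 0.23 passed (adjusted p = 0.0117). ICMT, which methylates prenylated proteins, fell by 0.55 ± 0.12 (adjusted p = 0.00659) in SW48 and by 1.06 ± 0.10 (adjusted p = 3.13e-05) in 23132/87. The ICMT difference of 0.51 ± 0.15 (adjusted p = 0.0369) was lost under 11 of 21 alternatives. COQ2, which attaches the coenzyme Q side chain, fell by 0.76 ± 0.14 (adjusted p = 0.00247) in SW48 and by 0.40 ± 0.12 (adjusted p = 0.0186) in 23132/87, where the call was lost without vehicle replicate 1 or 2, at -0.35 and -0.39.

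Sterol efflux and LXR genes were the list with the fewest calls. Of 8 genes SW48 listed 6, with none called (median -0.06), and 23132/87 listed 7, of which ABCG1, an exporter of cholesterol, fell by 1.06 ± 0.22 (SE, adjusted p = 0.00325). ABCG1 was at 9.93, 17.6 and 20.4 with MyrC in 23132/87, against 28.8, 37.3 and 33.1 with vehicle, and was not listed in SW48.

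Of 6 genes listed for sterol esters, 5 were in each table, with 0 up and 2 down in SW48 (median -0.33) and 1 up and 2 down in 23132/87 (median -0.36). NCEH1, a hydrolase of cholesterol esters, was at 11.0, 14.5 and 9.67 in SW48 MyrC libraries, against 11.3, 8.66 and 11.8 in SW48 vehicle libraries, and at 14.0, 16.2 and 15.0 in 23132/87 MyrC libraries, against 34.9, 45.9 and 55.7 in 23132/87 vehicle libraries. It fell in 23132/87 by 1.51 ± 0.15 (SE, adjusted p = 5.86e-05), its change in SW48 was 0.13 ± 0.17 (adjusted p = 0.61), and the difference was 1.64 ± 0.24 (adjusted p = 0.000913). LIPA, the lysosomal acid lipase, fell in SW48 by 0.56 ± 0.17 (adjusted p = 0.0292) and rose in 23132/87 by 0.30 ± 0.09 (adjusted p = 0.0243), with a difference of -0.86 ± 0.20 (adjusted p = 0.0128). The LIPA call was lost under 6 of 15 alternatives in SW48 and 5 of 14 in 23132/87. ACAT1 fell by 0.72 ± 0.13 (adjusted p = 0.00188) in SW48 and by 0.61 ± 0.13 (adjusted p = 0.00482) in 23132/87. The symbol ACAT1 stands for the mitochondrial thiolase, not for an enzyme that esterifies cholesterol. It is among the 2 genes that fell in each line, so these counts are not of sterol ester genes alone. SOAT1, which does esterify cholesterol, changed by -0.12 in SW48 and -0.02 in 23132/87 and passed in neither.

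Of 16 genes listed for intracellular sterol carriers, SW48 listed 13, of which 4 rose and 3 fell (median -0.01), and 23132/87 listed 15, of which 5 rose and 2 fell (median 0.06). This list also holds LAMTOR1, SLC38A9 and TMEM41B, which are not sterol carriers. LAMTOR1 is among the genes that fell in SW48, and TMEM41B among those that rose in both lines. TMEM41B, a lipid scramblase of the endoplasmic reticulum, was at 28.3, 37.7 and 31.7 in SW48 MyrC libraries, against 15.2, 16.5 and 16.8 in SW48 vehicle libraries, and at 57.8, 49.0 and 52.1 in 23132/87 MyrC libraries, against 31.0, 28.7 and 27.0 in 23132/87 vehicle libraries. It rose by 0.96 ± 0.13 (SE, adjusted p = 0.000534) in SW48 and by 0.85 ± 0.10 (adjusted p = 0.000145) in 23132/87. SCP2, the peroxisomal sterol carrier protein, fell by 0.71 ± 0.14 (adjusted p = 0.00315) in SW48 and by 0.67 ± 0.14 (adjusted p = 0.00278) in 23132/87. GRAMD1B, which moves cholesterol from the plasma membrane to the endoplasmic reticulum, was at 2.31, 3.30 and 3.16 with MyrC in 23132/87, against 11.4, 10.4 and 12.1 with vehicle, and fell by 1.65 ± 0.14 (adjusted p = 1.83e-05). It was not listed in SW48. The other called carriers of this list are named after their values were seen. OSBP rose by 0.35 in SW48 and 0.51 in 23132/87, and OSBPL2 by 0.38 in SW48 and 0.68 in 23132/87. OSBPL10 rose in SW48 alone, by 0.49, and OSBPL9 in 23132/87 alone, by 0.64. GRAMD1C rose in 23132/87 by 0.59 and was not listed in SW48. STARD3NL fell in SW48 by 0.43. How these calls hold under the alternatives is not given.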

How the data were processed

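RNA from SW48 and 23132/87 cells was sequenced after TruSeq Stranded mRNA library preparation, per the labels' protocols. The submitters' processing notes list FastQC, STAR and the genome build GRCh38, with no versions. How reads were counted, with which annotation and strand setting, and in what unit, is not given in the sources used here. For each line the authors deposited 1 table of expression signal, with 1 column per library and Ensembl gene identifiers. Columns were matched to libraries by the labels, which tie the SW48 MyrC columns numbered 2, 3 and 4 to replicates 1, 2 and 3, so the column and replicate numbers of these libraries disagree.

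The 28 genes and the other gene lists were chosen with earlier results of these data known. Values were transformed as log2(value + 1), which understates changes of low genes, and a minimum mean of 1 removed none of the 28. The fits used limma 3.58.1 (R 4.3.3) with its trend option over all genes of each table, and over the genes in both for the line-by-treatment term, without covariates. Every adjusted p is Benjamini-Hochberg adjusted over all genes of its fit, two-sided, with a threshold of 0.05. The scripts were tested on constructed data with known answers. Of the 28, genes that passed in at least 1 line or differed between lines are given by library, and of each other list the 2 called genes with the largest change in each line are named. Alternatives were quantile normalization, median-centred scaling, no trend, no filter, at least 10 in at least 3 libraries, pseudocounts of 0.1 and 5, replicate blocks and leaving out each library. The block by SW48 column number used only the SW48 libraries whose number occurs in both groups. Positions and exon overlaps come from the GENCODE annotation of GRCh38, and promoters from RefSeq on GRCh38.p14. Some genes of the pathway are not reported here.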

Additional observations from a re-analysis of the deposited data

Results flagged for a closer look

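For 10 genes the change with MyrC differed between the lines by the line-by-treatment term. They are among the 28 and the genes named from the other lists for the largest changes in each line. All values are the SW48 change minus the 23132/87 change on the log2 scale, with limma's adjusted p. Of the 28 genes these were INSIG1 at 1.70 (adjusted p = 0.00222), LSS at -0.92 (adjusted p = 0.0139) and PMVK at -0.77 (adjusted p = 0.0139). For the 28 these are 3.57% upward and 7.14% downward, against 5.33% and 7.39% of all genes in both tables. The genes from the other lists had been named for a large change in at least 1 line, which favours a difference. Their number therefore has no matching share over all genes. INSIG1 was higher with MyrC in 6 of 6 libraries, LSS rose in 23132/87 and passed in SW48 only without MyrC replicate 1, and PMVK was lower in 3 of 3 SW48 libraries. The LSS difference was lost under 1 of 21 alternatives. Around the pathway, RNF145 differed at -1.12 and LIPA at -0.86, and both fell in SW48 and rose in 23132/87. NCEH1 at 1.64 and PDSS1 at 0.99 fell in 23132/87 alone. ICMT at 0.51 fell in both lines, and this difference was lost under 11 of 21 alternatives. In fatty acid synthesis SCD differed at 1.32, having risen in SW48 alone. ME1 at -0.59 rose in both lines, and its difference was lost under 15 of 21 alternatives. The other lists hold 4 more such genes, named after their values were seen: DHDDS at -0.63 (adjusted p = 0.0203), DOLK at 0.79 (adjusted p = 0.00946), OSBPL9 at -0.88 (adjusted p = 0.0056) and ACSL3 at 0.51 (adjusted p = 0.038). The ACSL3 difference was lost under 12 of 21 alternatives. Among the cell markers, KRT8 differed at 2.67, KRT18 at 3.17, KRT19 at 1.96 and CDX2 at -1.45.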

How the results depend on the processing

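The number of the 28 genes called was 13 in SW48 and stayed between 10 and 16 when single libraries were left out. It was 16 in 23132/87 and stayed between 11 and 17. The difference between lines had 3 called genes, and 3 to 5 without single libraries, with 5 without SW48 MyrC replicate 1, where ACAT2 and TM7SF2 joined. Over all 10264 genes in both tables the difference had 1306 calls, and 1381 without that replicate. With a replicate block the counts were 11 in SW48, 16 in 23132/87 and 3 for the difference. A replicate block that followed the SW48 column names gave 11 in SW48. That block left out SW48 vehicle replicate 1 and MyrC replicate 3, whose column numbers had no match, so its results do not show the effect of the block alone. Over all genes, deviations of same-numbered libraries from their group means correlated at -0.0732, -0.175 and -0.138 in SW48 and at -0.24, 0.112 and -0.27 in 23132/87. None correlated best with its own number. Deviations within a group of 3 depend on each other, and pairs by column number were not checked this way. Whether the libraries were paired is therefore not settled. LSS lost its difference under the block by column number, at -0.74.

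Signs turned only for changes that passed no threshold there. Under median-centred scaling these were PMVK in 23132/87 at -0.02, MBTPS2 in 23132/87 at -0.03 and the LBR difference at 0.02. Quantile normalization gave MBTPS2 -0.05 and the LBR difference 0.0066, and a pseudocount of 5 gave MBTPS2 -0.0006. Leaving out single libraries gave ranges across 0 in 23132/87 for PMVK (-0.12 to 0.13), GGPS1 (-0.08 to 0.05), TM7SF2 (-0.05 to 0.25), NSDHL (-0.12 to 0.03), SCAP (-0.05 to 0.13), INSIG2 (-0.14 to 0.0078), MBTPS2 (-0.09 to 0.08), SCD (-0.06 to 0.15) and CDX2 (-0.14 to 0.07). In SW48 this held for MVK (-0.11 to 0.12), NSDHL (-0.11 to 0.06) and NCEH1 (-0.02 to 0.25), and for the differences of LBR (-0.17 to 0.04), EBP (-0.07 to 0.19) and TMEM97 (-0.07 to 0.33). The cause was not tested. Of all calls for the difference over all genes, 41.9% were upward as deposited, 54.5% after quantile normalization and 54.1% after median centring. Small changes can be missed with 3 libraries per group and unknown depth, and genes low in either condition are not listed.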

Other observations

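Fatty acid synthesis, which shares SREBP control with sterol synthesis, was not described above. Of 16 genes, SW48 listed 14, of which 7 rose and 1 fell (median 0.38), and 23132/87 listed 12, of which 4 rose and 2 fell (median 0.08). The share of listed genes that rose was 50.0% in SW48, against 10.1% of all genes, and 33.3% in 23132/87, against 23.3% of all genes. The share that fell was 7.14% in SW48, against 19.2% of all genes, and 16.7% in 23132/87, against 23.2% of all genes. The genes that fell are named here after their values were seen. FASN and ACLY fell in 23132/87 by 0.66 ± 0.15 and 0.43 ± 0.12 (SE), with changes of -0.01 and 0.04 in SW48. ELOVL6 fell in SW48 by 0.69 ± 0.16, with a change of -0.12 in 23132/87. SCD, the desaturase that makes oleate, was at 332, 261 and 222 in SW48 MyrC libraries, against 104, 113 and 92.1 in SW48 vehicle libraries. In 23132/87 it was at 633, 721 and 729 with MyrC, against 754, 570.0 and 688 with vehicle, so the groups overlapped there. SCD rose in SW48 by 1.38 ± 0.15 (SE, adjusted p = 0.00018), and its change in 23132/87 was 0.06 ± 0.13 (adjusted p = 0.75).

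LPIN1, a phosphatidate phosphatase and SREBP target, rose in both lines. It was at 10.2, 15.1 and 9.58 in SW48 MyrC libraries, against 4.54, 5.40 and 4.41 in SW48 vehicle libraries. In 23132/87 it was at 25.6, 18.6 and 18.5 with MyrC, against 7.95, 8.67 and 9.53 with vehicle. The rise was 1.11 ± 0.17 (SE, adjusted p = 0.00103) in SW48 and 1.16 ± 0.14 (adjusted p = 0.000173) in 23132/87. ME1, the malic enzyme that supplies NADPH, rose by 0.66 ± 0.13 (adjusted p = 0.00295) in SW48 and by 1.26 ± 0.13 (adjusted p = 5.63e-05) in 23132/87. MID1IP1, an activator of acetyl-CoA carboxylase, rose by 1.13 ± 0.19 (adjusted p = 0.00137) in SW48 and by 0.61 ± 0.14 (adjusted p = 0.00471) in 23132/87.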
